A study of Homo sapiens with 2 samples.

Results

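Histone mRNAs were compared between 2 Affymetrix arrays of K562 cells, a human chronic myeloid leukaemia line with erythroid features. One array came from cells with the control retroviral vector pMSCV and the other from cells overexpressing PML4, an isoform of the promyelocytic leukaemia protein that forms PML nuclear bodies. Both cultures grew in G418 for 3 weeks, so they share the infection and the drug selection, and the labels name neither clones nor the promoter that drives PML4. The histone genes were taken from the array annotation by symbol, covering linker histones (H1), core histones H2A, H2B, H3 and H4, and the variants H2AX, H2AZ1, H2AZ2 and H3.3. The rule found 98 of 54613 human probe sets, naming 75 genes. Of these probe sets 70 belonged to 1 gene and 28 were shared by several genes. A probe set of its own existed for 55 of the 75 genes, and 34 of those were measured, meaning that their MAS5 signal exceeded a floor of 72.4 on at least 1 array. The 34 consisted of 29 replication-dependent and 5 replacement histone genes, out of 12541 measured genes in all.

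Replication-dependent histone genes lie mostly in clusters, exist in many near-identical copies, and are transcribed in S phase to package newly copied DNA. Their mRNAs normally end in a stem-loop instead of a poly(A) tail, whereas replacement variants are made throughout the cell cycle from ordinary polyadenylated mRNAs. The H3.3 variant is deposited by HIRA and by DAXX with ATRX, and DAXX resides in PML nuclear bodies. Standard Affymetrix labelling primes cDNA synthesis from poly(A), so an array signal for a replication-dependent gene need not follow the amount of its stem-loop mRNA. No replicate array existed, so every difference below describes these arrays, with no statistical test.

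The H2A and H2B genes of the clusters are often paired head to head, and their promoters carry an octamer, the binding motif of POU-domain factors such as OCT1, next to CCAAT and TATA boxes. The 200 bases before the RefSeq start site (GRCh38.p14) are printed 5′ to 3′ on the strand of the gene. They are shown because H2B genes made up 5 of the 7 replication-dependent genes at least 1.5-fold higher, and 11 of the 29 measured. Of all measured genes 5.7% were that much higher. Among the 5 H2B genes, H2BC6, H2BC9 and H2BC12L were read by sets ending in _x_at, whose signals cannot be told apart from other H2B copies. H2B genes with a higher signal with PML4 come first, as a selection that includes H2BC12 (1.36-fold) and leaves out H2BC9 (1.58-fold). Also left out are H2BC5 and H2BC15, higher genes without the octamer, so every H2B promoter printed holds it. H2BC3, whose direction depended on the scaling, and H1-3, the gene with the largest lower difference, follow. Capitals mark ATTTGCAT (the octamer), CCAAT and TATAAA on either strand.
H2BC4, chr6:26123927-26124126, minus strand: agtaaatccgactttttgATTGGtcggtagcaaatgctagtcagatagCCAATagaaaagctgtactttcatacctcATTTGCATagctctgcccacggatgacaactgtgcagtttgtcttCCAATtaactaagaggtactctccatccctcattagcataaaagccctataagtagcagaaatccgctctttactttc
H2BC17, chr6:27893225-27893424, plus strand: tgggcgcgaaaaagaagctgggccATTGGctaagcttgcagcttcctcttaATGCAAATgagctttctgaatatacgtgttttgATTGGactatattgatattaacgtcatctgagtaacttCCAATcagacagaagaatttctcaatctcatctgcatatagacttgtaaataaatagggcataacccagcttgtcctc
H2BC6, chr6:26183561-26183760, plus strand: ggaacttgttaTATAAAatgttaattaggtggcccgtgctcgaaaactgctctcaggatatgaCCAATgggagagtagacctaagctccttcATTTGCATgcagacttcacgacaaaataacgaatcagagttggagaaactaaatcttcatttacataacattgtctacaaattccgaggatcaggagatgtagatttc
H2BC12, chr6:27146859-27147058, minus strand: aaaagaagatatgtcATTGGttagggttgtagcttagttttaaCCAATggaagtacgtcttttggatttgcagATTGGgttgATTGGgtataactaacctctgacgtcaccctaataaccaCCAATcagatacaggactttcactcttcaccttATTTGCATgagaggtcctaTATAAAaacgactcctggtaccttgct
H2BC3, chr6:26043714-26043913, minus strand: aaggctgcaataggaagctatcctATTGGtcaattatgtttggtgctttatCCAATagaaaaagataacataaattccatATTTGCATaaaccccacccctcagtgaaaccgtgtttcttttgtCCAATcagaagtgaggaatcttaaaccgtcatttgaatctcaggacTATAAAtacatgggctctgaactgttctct
H1-3, chr6:26234988-26235187, minus strand: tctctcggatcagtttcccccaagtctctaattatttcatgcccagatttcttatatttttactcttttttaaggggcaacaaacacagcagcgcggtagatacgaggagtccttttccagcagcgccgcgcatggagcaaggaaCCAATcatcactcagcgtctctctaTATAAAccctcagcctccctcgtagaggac

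The octamer was present in 15 of 20 promoters of replication-dependent H2B genes (18 genes, some with several start sites) and in 7 of 16 of H2A genes. It was found in 1 of 14 H3 promoters, in none of 6 H1 and 13 H4 promoters, and in 1.31% of all 35116 promoters of the same length. CCAAT was present in every H1, H2A, H2B and H3 promoter of this class but in 3 of 13 H4 promoters, against 28.03% of all promoters. TATAAA was present in 11 of 20 H2B promoters, against 8.59% of all. Among the measured H2B genes 10 had a promoter in the table, and 8 of these held the octamer. The exceptions were H2BC5 and H2BC15, while H2BC3 and H2BC21, the genes with negative log2 differences (-0.10 and -0.05), both held it; the value for H2BC3 turned to 0.10 with quantile normalization and 0.056 with loess. A match is a string of letters in this window and says nothing about binding in these cells.

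The cultures and arrays were checked first. PML was read by 10 probe sets, 9 of them measured, of which 5 were higher and 4 lower with PML4, between 5.92-fold lower and 7.12-fold higher. In a list for K562, made of blood-cell and erythroid genes with ABL1 and BCR, 10 genes were measured, and their summed signal was 55093 with the vector and 79857 with PML4. Among them HBZ, zeta-globin, was 3.90-fold and TFRC, the transferrin receptor, 1.80-fold higher, and EPOR, the erythropoietin receptor, 2.08-fold lower. Among markers of other cells, 2 of 6 fibroblast, 3 of 5 T cell, 1 of 3 B cell and 2 of 3 epithelial genes were measured. Their summed signals on the control and PML4 arrays were 513 and 336 for fibroblast and 2710 and 5381 for T cell genes. The sums were 206 and 171 for B cell and 7233 and 9302 for epithelial genes. Most of the T cell sum was CD3D, at 2478.0 and 4996.3. CD3G was at 126.1 and 329.3, CD3E at 105.9 and 55.3, and CD2 was under the floor on both arrays. The 3′ to 5′ ratio was 1.55 and 1.53 for GAPDH and 2.94 and 2.80 for ACTB. Over all human probe sets the median signal was 80.6 with the vector and 64 with PML4. The part of these values in the histone differences was not tested.

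Replication-dependent and replacement histone genes had similar medians, without a test. Among the 29 replication-dependent genes 17 read higher with PML4 and 12 read lower, and the median log2 difference was 0.11. The median turned to -0.089, with 10 of 19 genes lower, once sets whose names carry the _s_at or _x_at suffix, which marks probes that match several transcripts, were left out. Among the 5 replacement genes 3 read higher and 2 lower, with a median of 0.14. These counts depended on the scaling. With quantile normalization 8 of 30 replication-dependent genes read lower, and with loess 9 of 29. The 2 lower replacement genes, H2AZ1 and H3-3A, turned positive. Their log2 differences became 0.07 and 0.09 with quantile normalization, and 0.04 and 0.09 with loess. Across all 12541 measured genes 44.7% had a higher signal and the median was -0.05. The class medians lay -0.03 apart, a gap that turned to 0.034 when the arrays were quantile normalized or loess centred. The gap was -0.08 with the mean over probe sets. Without sets ending in _s_at or _x_at it was -0.15, with 2 replacement genes left. The classes differed in range: replication-dependent genes ran from -1.500 to 1.38 on the log2 scale, and replacement genes from -0.05 to 0.29. Signals of the replication-dependent genes reached down to 37.9, whereas the lowest signal among replacement genes was 192.4.

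**Figure D1:**
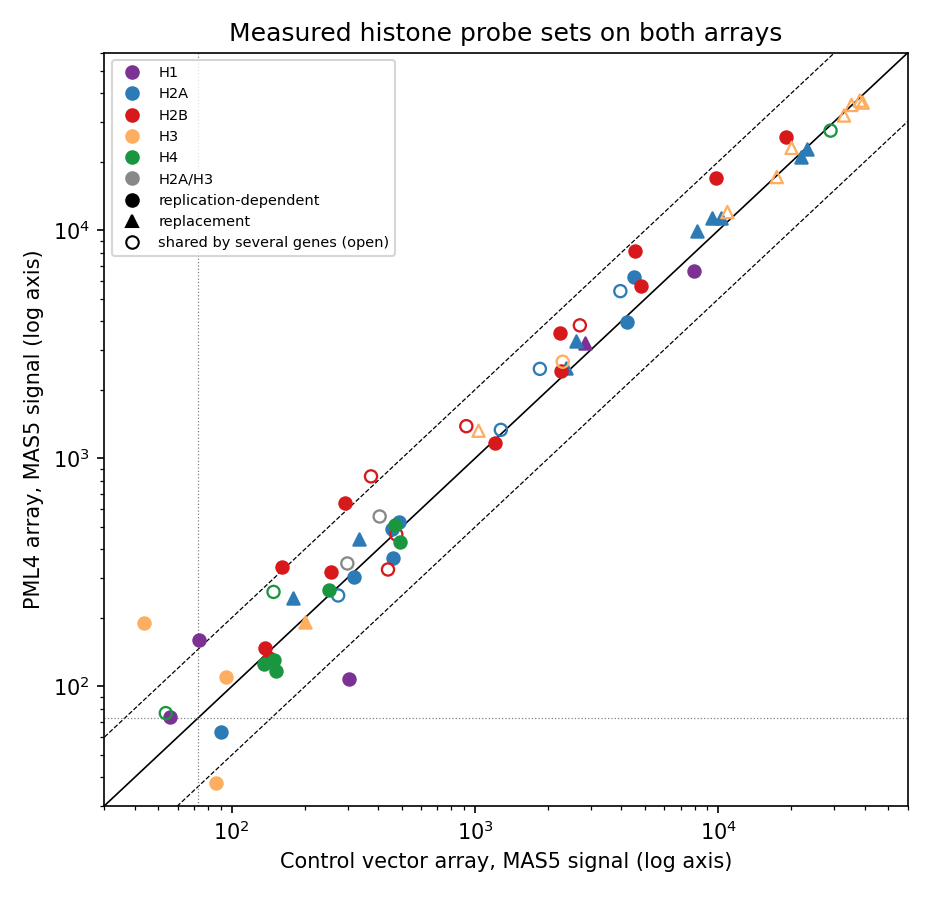
Each point is 1 measured histone probe set, with its MAS5 signal for the control vector (x, log axis) and for PML4 (y, log axis). Colour gives the histone type, circles replication-dependent genes, triangles replacement genes and open symbols probe sets shared by several genes; the solid line marks equality, dashed lines 2-fold and dotted lines the floor of 72.4. Most H2B points lie above the line of equality, and the H3.3 triangles lie along it.

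At a difference of at least 2-fold, 4 of 29 replication-dependent genes were higher and 1 was lower, and no replacement gene was called. This amounted to 13.8% higher, where 1.23% of all measured genes were called higher, and to 3.45% lower, where 3.21% were called lower. Of the higher calls H3C8 passed the floor with PML4 alone, and among the 26 genes above the floor on both arrays 3 were called higher. With a pseudocount of 32 in place of the floor 2 of 29 were called higher, and with the mean over probe sets 3 of 29. Over all genes the calls numbered 154 higher and 402 lower as deposited, 196 and 281 with quantile normalization, and 190 and 286 with loess. None of the 5 called histone genes had a signal above 636.5, and none lay among the brightest 25% of genes, of which 0.51% were called higher and 0.702% lower. At 1.5-fold 7 of 29 were higher, against 5.7% of all genes, and 1 was lower, against 11.8%. Of the 7 higher genes 5 encoded H2B, as did 11 of the 29 measured.

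Core histone H2B, which pairs with H2A in the nucleosome, had the highest median difference of the types with more than 3 measured genes. Of 11 H2B genes 9 read higher with PML4 and 2 lower, with a median difference of 0.44 on the log2 scale. The median lay between 0.37 and 0.51 under 8 alternative settings. Without the H2B genes the other 18 replication-dependent genes had a median of -0.085, with 8 higher and 10 lower. These values hold for the deposited scaling only. With quantile normalization the H2A and H4 medians turned positive, to 0.02 and 0.08, and with loess to 0.01 and 0.03.

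H2BC4 was at 292.4 with the vector and 636.5 with PML4, or 2.18-fold higher (signals are given in this order throughout). H2BC17 was at 161.4 and 335.5, or 2.08-fold higher. With a pseudocount of 32 in place of the floor the log2 difference of H2BC17 was 0.93, under the size of a call, and that of H2BC4 was 1.04. A floor at the 75th percentile of the signals gave H2BC4 a log2 difference of 0.45, which ends its call, and left H2BC17 unmeasured. Both genes were read by 1 probe set each, without an ending that marks shared probes.

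H2BC6 was at 4563.4 and 8116.8, which is 1.78-fold higher. H2BC12L, an H2B gene on chromosome 21 outside the clusters, was at 9781.8 and 16936.6, or 1.73-fold higher. H2BC9 was at 2246.4 and 3539.5, or 1.58-fold higher. These probe sets end in _x_at, so their signals cannot be told apart from those of other H2B copies.

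H2BC12 was at 18914.0 and 25633.9, a 1.36-fold higher signal from a probe set without such an ending. H2BC5 was at 4815.9 and 5680.1 in one probe set and at 2248.1 and 2419.8 in the other, 1.18-fold and 1.08-fold higher. H2BC11 was 1.24-fold and H2BC15 1.08-fold higher. H2BC21, in the chromosome 1 cluster, was at 1214.3 and 1169.1, and H2BC3 at 142.6 and 133.5, differences of -0.05 and -0.10 on the log2 scale; with quantile normalization or loess H2BC3 turned higher, which made 10 of 11 H2B genes higher. The 5 H2B genes among the brightest 25% of all genes were each higher, 3 of them by at least 1.5-fold, where 4.02% of all genes that bright were. All but H2BC12 were read by sets ending in _x_at, so these are not separate readings, and H2BC12 itself did not reach 1.5-fold. Among the other types 3 replication-dependent genes were that bright, and 1 of them was higher. Of all genes that bright 56.6% were higher.

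**Figure D2:**
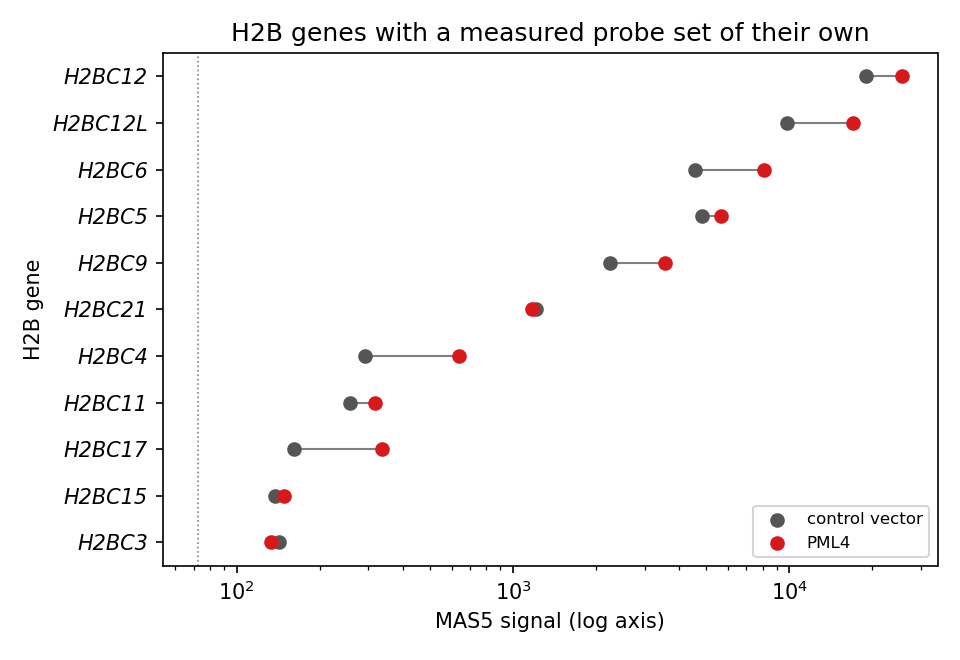
MAS5 signal (x, log axis) of the 11 H2B genes with a measured probe set of their own, ordered by mean signal, on the control vector array (grey) and the PML4 array (red), 1 array each; the dotted line is the floor of 72.4. The PML4 point lies to the right for 9 genes and to the left for H2BC21 and H2BC3, the latter turning right with quantile normalization or loess.

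H2B probe sets shared by several genes differed both ways. Of 5 measured shared H2B sets 3 were higher and 2 lower. The set 214455_at, annotated jointly to H2BC4, H2BC6, H2BC7, H2BC8 and H2BC10, was at 373.9 and 834.5, or 2.23-fold higher, and the only shared set called, where 1.3% of all measured probe sets were called higher. The sets 208490_x_at and 208523_x_at, annotated to the same genes, were 1.42-fold and 1.503-fold higher. The sets 210387_at and 215779_s_at, annotated to H2BC8 and H2BC11 together, were 1.02-fold and 1.35-fold lower. Over all 17 measured H2B probe sets 13 were higher, and all 7 that end in _x_at were among these. Of the 8 H2B sets without an ending for shared probes 6 were higher, with a median of 0.37. These 8 include 214455_at and 210387_at, which are shared by annotation. Sets that share target sequence are not independent readings.

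H2A genes, the partners of H2B, were spread around 0. Of 7 measured H2A genes 3 were higher and 4 lower, with a median of -0.08 that became 0.02 with quantile normalization and 0.01 with loess. None was called. H2AC6 was at 4511.3 and 6229.0, a 1.38-fold higher signal, H2AC25 at 4234.0 and 3979.9, and H2AC8 at 489.3 and 526.7. H2AC15 was 1.27-fold lower, and H2AC16 was at 90.7 and 63.4, the second value under the floor, which makes it at least 1.25-fold lower. Among shared sets, those annotated to H2AC18 and H2AC19 were at 3960.4 and 5417.2 and at 1849.0 and 2470.9, or 1.37-fold and 1.34-fold higher. The sets annotated to 6 other H2A genes were 1.04-fold higher and 1.09-fold lower.

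Head-to-head neighbours were measured on both sides for 3 pairs of H2A and H2B genes. The start sites of H2BC4 and H2AC6 lie 246 bases apart, and their log2 differences were 1.12 and 0.47. Those of H2BC17 and H2AC17 lie 240 bases apart, with differences of 1.06 and 0.11. Those of H2BC15 and H2AC15 lie 194 bases apart, with differences of 0.11 and -0.34. In each pair the H2B side had the more positive value. The values are those of the single genes counted above, with the called genes H2BC4 and H2BC17 among them. The pairs are therefore not separate readings.

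Linker histones, which bind DNA between nucleosomes, gave calls in both directions at low signal. H1-3 was at 303.8 and 107.4, a 2.83-fold lower signal and the only replication-dependent gene called lower. H1-2 was at 7985.4 and 6667.8, or 1.20-fold lower. H1-6, the testis-specific linker histone, was at 73.5 and 160.2 in one probe set, 2.18-fold higher, but at 56.0 and 73.2 in the other. Its log2 difference was 0.57 with the mean of both sets, and 0.87 with the pseudocount, both under the size of a call. H1-1, H1-4 and H1-5 had probe sets of their own, but under the floor on both arrays.

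H3 and H4 genes are hard to separate by sequence, and few had a measured set of their own. H3C8 was at 43.7, under the floor, and 188.9, which makes it at least 2.61-fold higher, in a set ending in _x_at. H3C2 was at 94.5 and 110.5, and H3-4, a testis-specific gene, at 86.6 and 37.9, at least 1.20-fold lower. The set 206110_at, annotated to 10 H3 genes, was at 2295.4 and 2655.6, or 1.16-fold higher. The sets annotated across H3 and H2A genes, 214522_x_at and 214472_at, were 1.16-fold and 1.37-fold higher.

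Of 5 measured H4 genes 2 were higher and 3 lower, none was called, and the median of -0.12 became 0.08 with quantile normalization and 0.03 with loess. H4C8 was at 469.4 and 510.4 in one probe set and at 493.3 and 431.4 in the other, so its readings disagreed in direction. H4C11 was at 250.4 and 264.4 and H4C4 at 148.6 and 130.6. The set 205967_at, annotated to 14 H4 genes, was at 28970.4 and 27397.9, or 1.06-fold lower, while 208580_x_at, annotated to the same genes, was at 148.6 and 259.8, or 1.75-fold higher. Another measured set of these genes, 207046_at, was at 53.6, under the floor, and 76.4, which makes it at least 1.06-fold higher. As deposited, the bright set 205967_at thus pointed the opposite way to the dim sets, by a log2 difference of -0.08. That direction depended on the scaling. With quantile normalization all 3 measured shared H4 sets were higher, and with loess 2 were higher and 1 lower.

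**Figure D3:**
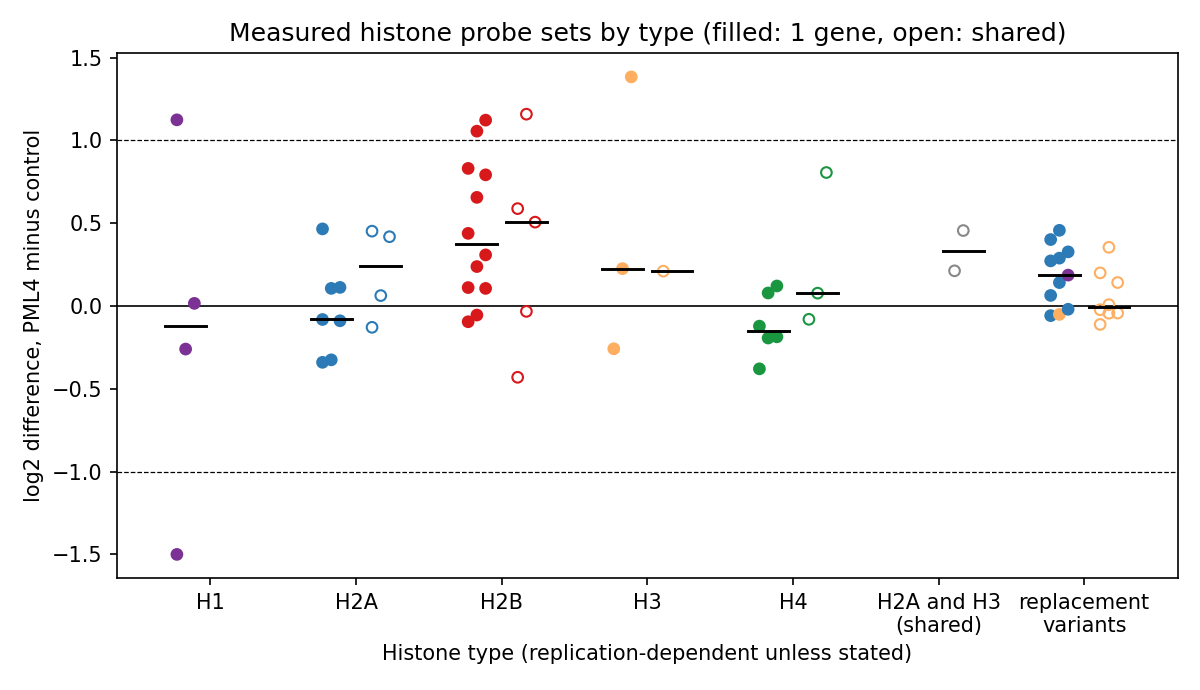
The log2 difference, PML4 minus control (y), of every measured histone probe set by type (x), filled for sets of 1 gene and open for shared sets; horizontal bars are medians over probe sets and dashed lines mark 2-fold. Points of the replacement group are coloured by type, and the H2B medians lie above those of H2A and H4.

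None of the replacement variants with a measured probe set was called. H2AZ1, an H2A variant found at promoters, was at 23171.3 and 22855.0 in one probe set and at 21805.4 and 20942.5 in the other, within 1.04-fold in each. H2AZ2, its close paralog, was read by 4 probe sets, all higher, from 1.05-fold to 1.25-fold, the brightest at 10257.6 and 11313.1. H2AX, the variant phosphorylated at DNA breaks, was at 8158.0 and 9967.1, or 1.22-fold higher, and its 2 other measured sets were 1.32-fold and 1.37-fold higher. Its mRNA can end in a stem-loop or in a poly(A) tail. H1-10, a replication-independent linker histone, was at 2821.1 and 3210.4, or 1.14-fold higher. H1-7 and H1-8 were under the floor on both arrays.

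H3.3, the H3 variant encoded by H3-3A and H3-3B, was read mostly by shared sets. H3-3A had 1 set of its own, at 199.3 and 192.4. The 8 sets annotated to both genes, each also to a pseudogene or a microRNA, had signals from 1034.8 to 39261.4, and 4 were higher and 4 lower. Their differences ran from -0.11 to 0.35 on the log2 scale with a median of -0.01, which became 0.15 with quantile normalization and 0.08 with loess. The largest difference lay in the dimmest of them, 211998_at, at 1034.8 and 1322.9. No H3.3 set was called.

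Genes that supply histones held no call at 2-fold. Of 24 measured genes of histone mRNA processing and transcription 13 were higher and 11 lower, with a median of 0.07. SLBP, which binds the stem-loop of histone mRNAs, was at 5786.8 and 6550.9, or 1.13-fold higher. NPAT, the coactivator of histone gene transcription, was at 1427.0 and 1626.9, or 1.14-fold higher, with a second set 1.18-fold lower. The brightest others were YBX1, at 20661.3 and 22661.1, and SRRT, at 5818.8 and 6296.4. LSM11, a U7 snRNP protein that acts in histone mRNA 3′ processing, named after its value was seen, had the largest difference of the list, at 1454.3 and 898.9, or 1.62-fold lower, and 3 of its 4 sets were lower.

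Of 30 histone chaperones 22 were higher and 8 lower, with a median of 0.15. DAXX was at 771.5 and 1050.3, or 1.36-fold higher, and its second set was at 575.2 and 781.7. HIRA was at 1305.7 and 1728.9, or 1.32-fold higher. ATRX, the remodeller that works with DAXX, was at 2109.5 and 2433.0, or 1.15-fold higher. The brightest chaperones were NPM1, 1.14-fold lower, NAP1L1, at 27443.5 and 20590.8, or 1.33-fold lower, and SET, at 19259.9 and 20450.1.

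Histones outside the symbol rule were few. MACROH2A1, a large H2A variant, was at 8020.5 and 10337.6, CENPA, the centromeric H3 variant, at 1140.6 and 1323.3, and H2AJ at 209.5 and 193.7. Of 20 S phase genes 11 were higher and 9 lower, with a median of 0.01, and PCNA, the replication clamp, was at 14876.6 and 15356.2. TYMS, which makes thymidylate, was at 18813.2 and 19436.1, and MCM3, part of the replicative helicase, at 11486.6 and 10439.1. The differences of the S phase list ran from -0.37 to 0.53.

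**Figure D4:**
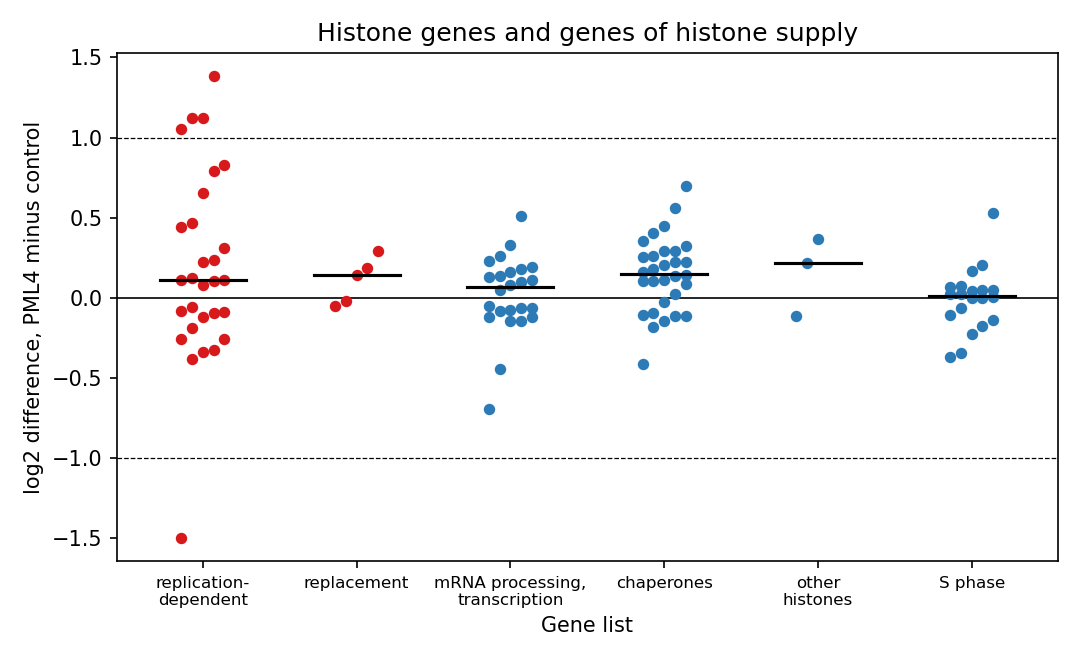
The log2 difference, PML4 minus control (y), of the measured genes of the 2 histone classes (red) and of 4 gene lists around histone supply (blue); bars are medians and dashed lines mark 2-fold. Only the replication-dependent class has points beyond the dashed lines. The signals of those genes reach at most 636.5, while signals of the S phase list start at 1190.5.

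Of the 55 genes with a set of their own 21 were not measured. They include 3 pseudogenes, H1-9P, H2AC5P and H4C10P, the antisense transcript H1-10-AS1, and 15 replication-dependent and 2 replacement genes. A further 20 genes were named on shared sets only, among them H3-3B, H2AC18, H2AC19 and 7 H4 genes, so no value can be given for any of them alone. Of 114 RefSeq symbols that match the rule, 82 are protein coding.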

How the data were processed

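Each of the 2 groups holds 1 array. Per the submitters' processing notes the authors used MAS5, version not given in the sources used here; the deposited values are signal intensities on a linear scale, and means trimmed by 2% at each end were 497.6 and 497.7, so no further scaling was applied. Genes came from GEO's platform annotation, and all 75 histone symbols matched RefSeq (GRCh38.p14). A floor was set at the median over all human probe sets and both arrays, 72.4; lower signals took its value before log2, and folds against it are written as at least N-fold. A gene took its measured single-gene probe set of highest mean log2 signal, and a call meant at least 2-fold. Values are given for every replacement gene, every called histone gene and the 3 of highest mean signal per type. Members, lists and rules were chosen with earlier results of these data known. The number of arrays limits the precision, and nothing measures the spread between cultures. The computations ran in Python 3.11.15, with loess from statsmodels 0.14.6. They were tested on simulated data with small noise and with changes put only into bright genes. That test does not cover calls at low signal, where the called histone genes lie. Alternatives were 2 other floors, a pseudocount of 32, centring, quantile normalization, loess, the mean over probe sets, dropping _x_at and _s_at sets, and 1.5-fold calls.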

Additional observations from a re-analysis of the deposited data

How the results depend on the processing

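No paired analysis was possible because each group holds 1 array. The gap between class medians, replication-dependent minus replacement, changed sign in 4 settings: 0.052 with the floor at the 25th percentile, 0.074 with it at the 75th, and 0.034 with quantile normalization and with loess. The replication-dependent median was -0.089 without sets ending in _x_at or _s_at, which leaves 19 genes. It was -0.085 without the H2B genes, which was tried after seeing the data and at the deposited scaling only. With the floor at the 25th percentile 2 replication-dependent genes were called lower and 1 replacement gene was called, H1-7, at 46.4 and 3.4 in signal. At the 75th percentile, which leaves 13 replication-dependent genes, 0 were called higher, 0 lower, and 3 had a lower signal. With a pseudocount 2 were called higher, and at 1.5-fold 7 were. Of 242 values of single genes under the alternatives 237 moved by less than 0.30, the median gap between probe sets of 1 gene. Many of them could not move, because a floor leaves brighter signals as they are and averaging leaves genes with 1 set as they are. Genes that became unmeasured are not counted, among them H1-3, H1-6, H2BC17 and H3C8 with the floor at the 75th percentile. None of the 5 called genes changed sign where it was measured. Of the 5 values that moved by more than the gap, 3 belong to called genes. These were H3C8 at 2.11 with the 25th percentile floor, H2BC4 at 0.45 with the 75th, and H1-6 at 0.57 with the mean over sets. H2BC4, H2BC17 and H1-6 each fell under 2-fold in at least 1 alternative. H2B medians under the alternatives were also computed after seeing the data.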
